A study of Homo sapiens with 12 samples.

Results

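The clustered replication-dependent histone genes are the linker histone genes H1-1 to H1-5 and the H2AC, H2BC, H3C and H4C genes, known in older nomenclature as HIST1 to HIST4. The family was taken up with earlier results of these data known. Within it, probe sets were chosen by gene symbol, taking every probe set whose platform annotation gives exactly 1 symbol of that kind. This gave 49 of 54675 probe sets on the array, for 44 of the 19775 genes with such a probe set. There were 5 probe sets of 5 H1 genes, 11 of 9 H2A genes, 15 of 14 H2B genes, 8 of 7 H3 genes and 10 of 9 H4 genes. The pseudogenes H4C10P and H2AC5P and the H2B-like gene H2BC12L are among them.

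The arrays carry RNA of HK-2 cells, an immortalized line of human kidney proximal tubule epithelium made with papillomavirus oncogenes. The 4 groups of 3 arrays were cells given a high dose of Ota for 24 h or for 72 h, and cells given the vehicle alone for 24 h or for 72 h. The labels give neither the amount of the dose nor the full name of Ota. All groups shared a medium with epidermal growth factor, hydrocortisone, insulin, transferrin and selenite, and were treated when close to confluent. The labels call the samples of a group biological replicates of 1 line, so p-values measure the spread between cultures of that line. Of 14 markers of proximal tubule epithelium 12 were on the array and only SLC4A4 and PAX8 passed the filter on low values, whereas 7 of 7 keratin and epithelial adhesion genes passed. No endothelial marker (0 of 6) and no leukocyte marker (0 of 5 on the array) passed. Of other lists, 3 of 5 podocyte markers on the array (SYNPO, PODXL and PTPRO) passed. So did 3 of 6 fibroblast markers (COL1A1, LUM and DCN) and 1 of 5 collecting duct markers (AQP3). The markers that passed are thus not particular to proximal tubule.

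Histones H2A, H2B, H3 and H4 form the protein core around which DNA is wound, and H1 binds the linker DNA between cores. The clustered genes supply these proteins in bulk when DNA is copied, and their transcripts rise on entry into S phase and are degraded when replication stops. Most of these transcripts end in a stem-loop with no poly(A) tail, held by the stem-loop binding protein SLBP, although many of the genes can also give tailed transcripts. The labels name the standard Affymetrix protocol without its primer, which in such protocols usually binds the tail. If so here, untailed transcripts would be copied poorly, and the values cannot tell a change in tailed transcripts from one in total histone mRNA. The genes are also near copies of each other, and a probe set can pick up transcripts of several. In bulk RNA, fewer cells of a type and less RNA per cell cannot be told apart.

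The sequences before the start sites are shown because the members share short promoter elements there and are often transcribed in opposite directions from a common interval. All are from RefSeq promoter windows on GRCh38.p14, which were found for 39 of the 44 genes, 37 on chromosome 6 and 2 on chromosome 1. The letters searched, on both strands, were ATTTGCAT (the octamer bound by POU factors, known from H2B promoters), CCAAT (the box bound by NF-Y) and TATAAA (the TATA box). Capitals mark them and their reverse complements in the sequences, each printed 5′ to 3′. The first is the whole 245 bases between the start sites of H2BC4 and H2AC6 at chr6:26123927-26124171, on the plus strand, which is that of H2AC6. The others are the 150 bases before the start on the gene's own strand, at chr6:27146859-27147008 (minus) for H2BC12, chr6:26251464-26251613 (plus) for H2BC9, chr6:26056471-26056620 (minus) for H1-2, chr1:149886683-149886832 (minus) for H2BC21, chr6:26045234-26045383 (plus) for H3C3 and chr6:26285535-26285684 (minus) for H4C8.
H2BC4 to H2AC6 interval: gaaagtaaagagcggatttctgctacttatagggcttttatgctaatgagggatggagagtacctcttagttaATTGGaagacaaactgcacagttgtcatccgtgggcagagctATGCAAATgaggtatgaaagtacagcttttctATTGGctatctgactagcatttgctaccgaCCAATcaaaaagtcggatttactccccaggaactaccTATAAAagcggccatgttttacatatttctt
H2BC12: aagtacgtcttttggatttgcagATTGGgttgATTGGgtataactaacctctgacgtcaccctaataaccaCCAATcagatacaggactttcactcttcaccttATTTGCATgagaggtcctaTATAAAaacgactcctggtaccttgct
H2BC9: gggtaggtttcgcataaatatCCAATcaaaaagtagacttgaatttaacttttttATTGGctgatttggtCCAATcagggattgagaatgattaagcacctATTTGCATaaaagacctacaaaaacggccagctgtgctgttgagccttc
H2BC21: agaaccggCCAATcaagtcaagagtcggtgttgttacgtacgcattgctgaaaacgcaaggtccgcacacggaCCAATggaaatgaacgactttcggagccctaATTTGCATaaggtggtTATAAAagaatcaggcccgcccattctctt
H1-2: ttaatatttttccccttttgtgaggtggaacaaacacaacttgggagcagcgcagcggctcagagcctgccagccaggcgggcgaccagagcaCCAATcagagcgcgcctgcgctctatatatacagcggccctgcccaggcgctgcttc
H3C3: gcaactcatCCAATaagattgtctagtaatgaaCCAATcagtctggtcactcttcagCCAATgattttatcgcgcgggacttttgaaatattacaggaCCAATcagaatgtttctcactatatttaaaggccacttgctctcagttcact
H4C8: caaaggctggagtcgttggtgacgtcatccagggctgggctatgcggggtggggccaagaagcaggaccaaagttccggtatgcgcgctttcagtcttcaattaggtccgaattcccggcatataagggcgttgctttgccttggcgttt

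In the 250 bases before the start, the octamer ATTTGCAT stood in 16 of 39 member promoters (41%), against 1.66% of all 27305 RefSeq promoter windows. It was found before 6 of 8 H2A and 10 of 13 H2B genes, and before none of the 5 H1, 6 H3 and 7 H4 genes. CCAAT stood in 34 of 39 (87.2%, against 33% of all) and TATAAA in 27 of 39 (69.2%, against 11.1%). The H4 genes held CCAAT in 2 of 7 windows, where every H1, H2A, H2B and H3 window held it. Divergent pairs, with 193 to 245 bases between their start sites, share most of this window, so a match there counts for both genes. These matches are a description of the sequence and not of any factor's binding.

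Each value is a log2 signal of 1 probe set after GCRMA, and a level can be compared between arrays but not between probe sets. A probe set entered the test if it had 1 symbol and exceeded 4 on at least 3 of the 12 arrays, which left 19401 probe sets, 22 of them members, for 20 genes. The other 27 members lay below this filter, 24 of them at or under 4 on every array. Of the 22 members over the filter, 10 exceeded 4 on 3 or more control arrays, and 11 did so on no control array and so passed through Ota arrays alone. Calls are from limma at a Benjamini-Hochberg adjusted p under 0.05 over all 19401 probe sets.

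The arrays of Ota-treated cells differed from control arrays as a whole. The mean of 24 poly-A spike-in probe sets was higher with Ota by 1.85 at 24 h and by 0.89 at 72 h (log2), and that of 18S ribosomal RNA by 1.58 and 1.34. The mean of 18 hybridization control probe sets was also higher with Ota, by 0.93 and 0.42. The median of all tested probe sets differed by -0.49 and -0.14. The 3′ to 5′ difference of ACTB was higher by 0.05 and 0.58, and that of GAPDH by 0.03 at each time. With 3 arrays against 3 the smallest two-sided exact permutation p is 0.1. All of these measures reached it except ACTB at 24 h and GAPDH at both times. The exact permutation p was 0.9 for ACTB at 24 h, and 0.3 and 0.7 for GAPDH at 24 h and 72 h. Scaling to the spike-ins lowers every log2 difference by those 1.85 and 0.89, with no allowance for the shift in the hybridization controls. The members' calls under it are given beside the results.

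At 24 h, 19 of the 22 members over the filter rose in Ota-treated cells and 0 fell, where 22.7% of all tested probe sets rose and 37.8% fell (limma). At 72 h, 20 rose and 0 fell, against 27.2% and 31.6% of all. The medians of the members' log2 fold changes were 2.74 and 3.74, and those of all tested probe sets -0.18 and -0.04. In all, 18 members rose at both times, H2BC3 at 24 h alone, H2BC21 and H3C6 at 72 h alone, and H2AC25 at neither. With spike-in scaling 13 rose and 3 fell at 24 h, where 2.16% of all tested probe sets rose and 91.1% fell, and 18 rose and 0 fell at 72 h, where 6.89% rose and 59% fell. The 3 that fell were H2AC25, H2BC21 and H3C6. Before scaling they differed by 0.08, 0.04 and -0.09, so these falls appear only on the spike-in scale. Which scale lies nearer the true RNA amounts was not tested.

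Members that passed through their Ota arrays had to differ, so the 10 that exceeded 4 on at least 3 control arrays are given apart. Of these, 9 rose at 24 h and 9 at 72 h, where 21% and 25.5% of all probe sets with such control levels rose. The 11 that passed through Ota arrays alone were H2AC8, H2AC14, H2AC16, H2AC17, H2BC3, H2BC4, H2BC21, H3C2, H3C3 and both H4C8 probe sets. For these 11, the calls, p-values and places in the family counts below describe the values and are not tests. In a fit of all 41091 probe sets with 1 symbol and no filter, 23 of the 49 members rose at 24 h and 20 at 72 h, where 19.3% and 12.2% of all rose, and 0 members fell at either time (17.4% and 14.1% of all). The medians over all 49 were 0.18 and 0.47, against 0.03 and 0.02 over all probe sets. The 3 Ota arrays lay above the 3 control arrays in 45 of the 49 members at 24 h, where 51.7% of all unfiltered probe sets did so, and in 38 at 72 h, where 28.8% did.

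**Figure D1:**
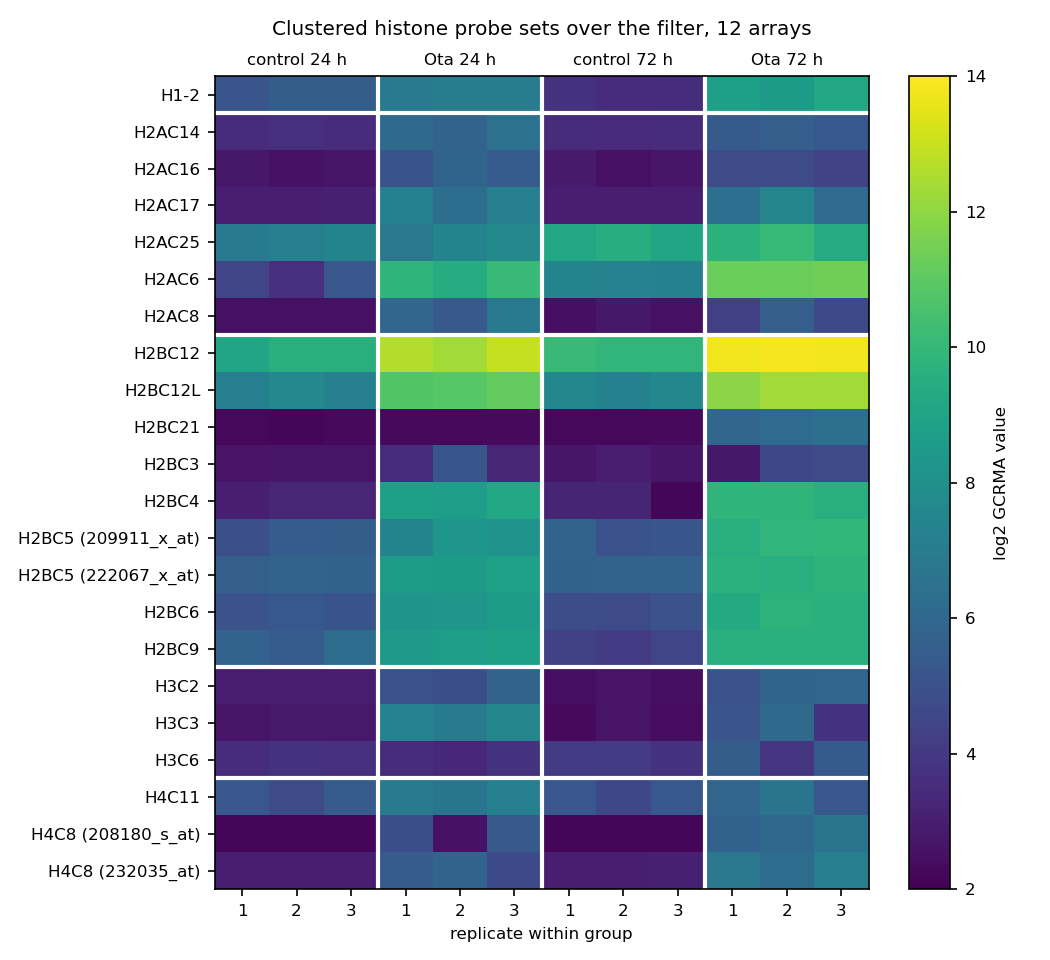
Log2 GCRMA values (colour) of the 22 members over the filter (rows, white lines between the H1, H2A, H2B, H3 and H4 families) on the 12 arrays (columns, 3 replicates in each group). Most rows are brighter in both Ota groups than in both control groups; H2AC25 is bright by time instead, and H2BC21 only in the Ota 72 h arrays.

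Among the linker histones, H1-2 (209398_at) was the 1 gene of 5 over the filter. It read 5.15, 5.54 and 5.55 on the 24 h control arrays and 6.92, 7.03 and 7.09 on the 24 h Ota arrays. At 72 h it read 3.69, 3.50 and 3.57 in control cells and 8.79, 8.54 and 9.20 in Ota-treated cells. Groups did not overlap at either time, and the gap was wider at 72 h, where control cells were lower and treated cells higher than at 24 h. The log2 fold change was 1.60 ± 0.18 (SE, n = 3 against 3) at 24 h (limma adjusted p = 1.47e-05) and 5.26 ± 0.18 at 72 h (adjusted p = 5.87e-09). With spike-in scaling the 24 h value turned to -0.25 (adjusted p = 0.459). H1-1, H1-3, H1-4 and H1-5 stayed between group means of 2.16 and 2.89.

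Of the H2A genes, which pair with H2B in the nucleosome, 5 of 6 probe sets over the filter rose at each time, also with spike-in scaling, under which 1 (H2AC25) fell at 24 h. H2AC6 (215071_s_at), the gene that shares the printed interval with H2BC4, read 4.52, 3.62 and 5.26 in 24 h controls and 9.83, 9.45 and 10.11 with Ota. At 72 h its control arrays read 7.43, 7.34 and 7.29 and its Ota arrays 11.31, 11.30 and 11.39. It was far higher with Ota at both times, and its control level itself was higher at 72 h. The log2 fold changes were 5.33 ± 0.32 at 24 h and 3.98 ± 0.32 at 72 h (limma adjusted p = 9.8e-08 and 1.02e-06).

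H2AC17 (214481_at) read 3.01, 3.01 and 3.05 in 24 h controls and 7.27, 6.34 and 7.16 with Ota, then 3.02, 3.03 and 3.02 against 6.39, 7.45 and 6.20 at 72 h. H2AC8 (214469_at) read 2.54, 2.55 and 2.55 against 5.98, 5.33 and 6.86 at 24 h, and 2.48, 2.77 and 2.55 against 4.25, 5.65 and 4.63 at 72 h. H2AC16 (214554_at) read 2.76, 2.58 and 2.71 against 5.14, 5.87 and 5.50, then 2.85, 2.54 and 2.72 against 4.79, 4.72 and 4.46. These 3 genes lay near the floor of the scale in every control array and above 4 in every Ota array. Their log2 fold changes were 3.90 ± 0.31, 3.51 ± 0.38 and 2.82 ± 0.19 at 24 h and 3.66 ± 0.31, 2.24 ± 0.38 and 1.95 ± 0.19 at 72 h, the adjusted p of limma lying between 2.05e-07 and 0.000297. Since values near the floor hardly fall further, the folds of such genes depend on how GCRMA sets it. H2AC14 had log2 fold changes of 2.60 and 1.94.

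H2AC25, an H2A gene outside the main cluster and named here after its values were seen, was the exception among the H2A members. Its 24 h arrays read 6.98, 7.20 and 7.40 in control cells and 6.78, 7.41 and 7.64 in Ota-treated cells. Its 72 h arrays read 9.14, 9.49 and 9.06 in control and 9.69, 10.06 and 9.36 in treated cells. The groups overlapped at both times, with log2 fold changes of 0.08 ± 0.25 and 0.47 ± 0.25 (limma adjusted p = 0.789 and 0.119), and both control and treated cells were higher at 72 h. Its 24 h value was -1.77 with spike-in scaling.

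The H2B genes had the most probe sets over the filter, of which 8 of 9 rose at 24 h and 8 at 72 h. With spike-in scaling 7 rose and 1 (H2BC21) fell at 24 h, and 8 rose at 72 h. H2BC21 was at the floor in both 24 h groups, so its fall is the shift of the scaling. H2BC4 (236193_at) read 2.99, 3.29 and 3.31 in 24 h controls and 8.80, 8.67 and 9.16 with Ota. At 72 h it read 3.26, 3.25 and 2.17 in controls and 9.86, 9.87 and 9.52 with Ota. It was near the floor in all 6 control arrays and high in all 6 Ota arrays. Its log2 fold changes were 5.68 ± 0.27 at 24 h and 6.86 ± 0.27 at 72 h (limma adjusted p = 2.2e-08 and 8.41e-09). H2BC4 passed the filter through its Ota arrays alone, so these values are a description. The size of the folds depends on where GCRMA sets the floor.

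H2BC12 (209806_at) read 9.08, 9.52 and 9.50 in 24 h controls and 12.60, 12.35 and 12.95 with Ota, and 10.09, 9.91 and 9.92 against 13.75, 13.83 and 13.81 at 72 h. Unlike H2BC4 it was well above the filter in control cells, and it rose by 3.27 ± 0.18 and 3.82 ± 0.18 (limma adjusted p = 5.12e-08 and 2.18e-08). H2BC12L (208579_x_at) read 7.20, 7.67 and 7.24 against 10.72, 10.90 and 11.10 at 24 h, and 7.61, 7.29 and 7.61 against 11.93, 12.35 and 12.33 at 72 h. Its log2 fold changes were 3.54 ± 0.19 and 4.70 ± 0.19. The _x_at probe sets of this family can share transcripts, so their similar values are not independent of each other.

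H2BC6 (208527_x_at) read 5.08, 5.29 and 5.11 against 8.20, 8.36 and 8.64 at 24 h, and 4.84, 4.72 and 5.05 against 9.35, 9.78 and 9.63 at 72 h. H2BC9 (208546_x_at) read 5.75, 5.44 and 6.26 against 8.51, 8.74 and 8.80 at 24 h, and 4.34, 4.08 and 4.52 against 9.54, 9.61 and 9.62 at 72 h. Neither gene's groups overlapped, and the 72 h control arrays of H2BC9 all lay below its 24 h control arrays. H2BC6 rose by 3.24 ± 0.17 and 4.71 ± 0.17, and H2BC9 by 2.86 ± 0.20 and 5.27 ± 0.20, with limma adjusted p between 5.87e-09 and 3.18e-07. The 2 probe sets of H2BC5 rose by 2.65 and 2.94 at 24 h and by 4.43 and 3.92 at 72 h.

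H2BC21 and H2BC3, named after their values were seen, departed from the rest of the H2B family. H2BC21 (202708_s_at), a member on chromosome 1, read 2.26, 2.19 and 2.29 in 24 h controls and 2.30, 2.28 and 2.29 in 24 h Ota arrays. At 72 h it read 2.28, 2.26 and 2.29 in controls and 5.96, 6.21 and 6.44 with Ota. It was at the floor in 9 arrays and high in the 3 Ota arrays of 72 h, with log2 fold changes of 0.04 ± 0.14 and 3.93 ± 0.14 (limma adjusted p = 0.817 and 5.87e-09). Its printed promoter holds the octamer, CCAAT and TATAAA, as does that of H2BC12, which was high at both times.

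H2BC3 varied between replicates, with 24 h Ota arrays at 3.59, 5.19 and 3.29 and 72 h Ota arrays at 2.75, 4.62 and 4.75, against controls between 2.65 and 2.90. It was called at 24 h (1.33 ± 0.53, limma adjusted p = 0.0446) and missed the threshold at 72 h (1.25 ± 0.53, adjusted p = 0.0582), which it passed with the replicate number as a block (adjusted p = 0.0379). The 24 h call ended without Ota replicate 2 (0.75, adjusted p = 0.184) or without any 1 of the 24 h controls, and the 72 h value passed without Ota replicate 1 (1.90, adjusted p = 0.00357). Its direction at 24 h turned with spike-in scaling (-0.52).

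**Figure D2:**
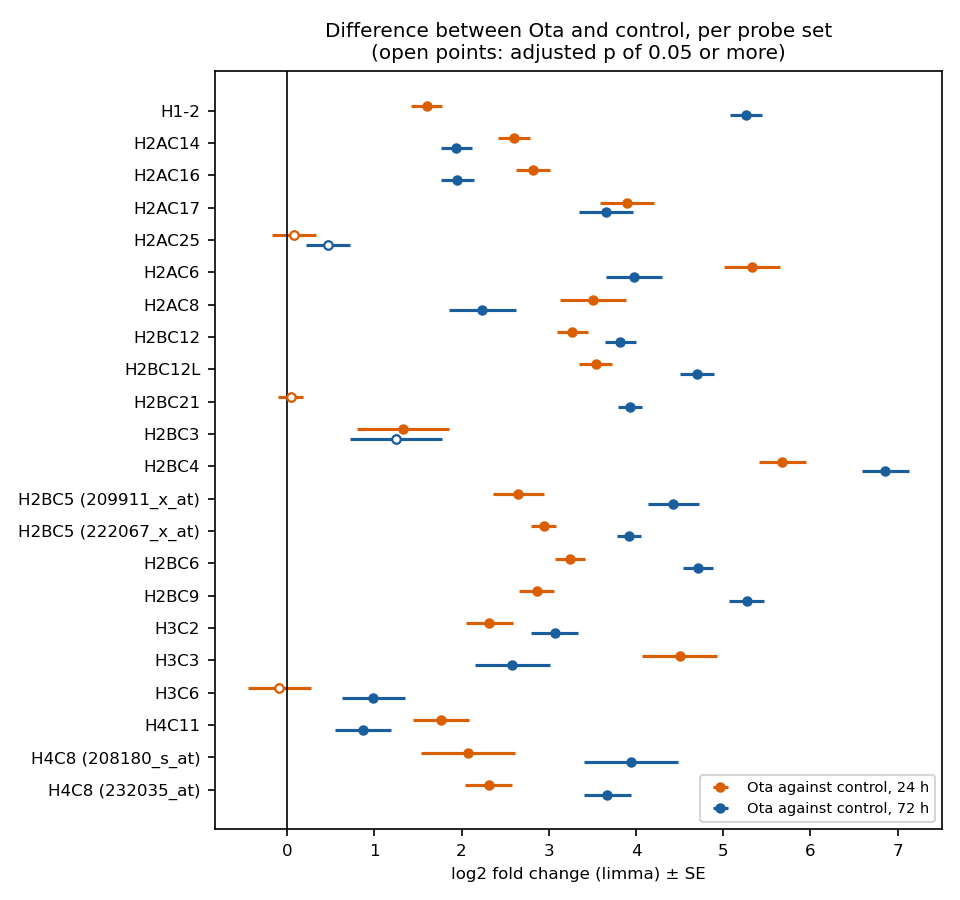
Log2 fold change of Ota against control with its SE from limma, for each of the 22 members over the filter at 24 h (orange) and 72 h (blue), 3 arrays in each group; open points did not pass the threshold. Nearly all points lie right of 0, and in 8 of the 9 H2B rows the 72 h point lies further right than the 24 h point.

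Of the H3 genes, which with H4 form the centre of the nucleosome, 2 of 3 probe sets over the filter rose at 24 h and 3 at 72 h. With spike-in scaling 1 rose and 1 (H3C6) fell at 24 h, and 2 rose at 72 h. H3C3 (208577_at) read 2.66, 2.80 and 2.80 in 24 h controls and 7.31, 6.99 and 7.47 with Ota. At 72 h it read 2.31, 2.61 and 2.42 in controls and 5.17, 6.13 and 3.78 with Ota. The groups did not overlap, but the treated arrays of 72 h were lower and more spread than those of 24 h. The log2 fold changes were 4.50 ± 0.43 and 2.58 ± 0.43 (limma adjusted p = 3.11e-06 and 0.000263).

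H3C2 (208576_s_at) read 2.91, 2.92 and 2.95 against 5.02, 4.89 and 5.83 at 24 h, and 2.49, 2.64 and 2.50 against 5.03, 5.89 and 5.91 at 72 h. It rose by 2.32 ± 0.27 and 3.07 ± 0.27. H3C6 (236278_at) read 3.53, 3.75 and 3.68 against 3.58, 3.33 and 3.78 at 24 h, and 4.02, 4.03 and 3.71 against 5.55, 3.79 and 5.39 at 72 h. Its groups overlapped at both times, with 1 treated array of 72 h at the control level. The 72 h call (0.99 ± 0.36, limma adjusted p = 0.0339) ended without Ota replicate 1 (0.67) or 3 (0.75) and without any 1 of the 72 h controls. It also ended without the filter (adjusted p = 0.115), in a fit of the 6 arrays of 72 h (0.0902) and with spike-in scaling (0.10, adjusted p = 0.851). H3C6 exceeded 4 on 2 control arrays, so it is in neither the group of 10 nor that of 11.

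Of the H4 genes, 3 of 3 probe sets over the filter rose at each time, and with spike-in scaling 0 rose at 24 h and 2 at 72 h. H4C8 has 2 probe sets over the filter, both through Ota arrays alone. Its 232035_at read 3.00, 3.01 and 3.01 against 5.46, 5.80 and 4.70 at 24 h, and 3.01, 3.01 and 3.07 against 6.76, 6.24 and 7.11 at 72 h. Its 208180_s_at read 2.19, 2.20 and 2.21 against 4.90, 2.57 and 5.33 at 24 h, and 2.21, 2.20 and 2.22 against 5.73, 6.06 and 6.64 at 72 h. Both probe sets were at the floor in all control arrays, and the second stayed close to it in 1 treated array of 24 h where the first did not. The log2 fold changes were 2.31 ± 0.27 and 2.07 ± 0.54 at 24 h, and 3.67 ± 0.27 and 3.94 ± 0.54 at 72 h (limma adjusted p between 4.62e-07 and 0.0056).

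H4C11 (214463_x_at) read 5.26, 4.80 and 5.43 against 6.90, 6.68 and 7.20 at 24 h, and 5.28, 4.60 and 5.30 against 5.91, 6.63 and 5.27 at 72 h. The 72 h groups overlapped. The log2 fold change was 1.76 ± 0.32 at 24 h (limma adjusted p = 0.000536) and 0.87 ± 0.32 at 72 h (adjusted p = 0.0345). The 72 h call ended without Ota replicate 1 (0.89, adjusted p = 0.0719), Ota replicate 2 (0.53) or control replicate 2 (0.64), and with the replicate number as a block (adjusted p = 0.0508). It also ended without the filter (adjusted p = 0.11) and in a fit of the 6 arrays of 72 h (adjusted p = 0.0695). With spike-in scaling its direction turned at both times, to -0.09 and -0.01.

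The 27 members below the filter had log2 fold changes between 0.01 and 1.28 at 24 h and between 0.01 and 0.79 at 72 h, with 0 below 0 at either time. The member just under the filter with the widest 24 h difference was H4C4, at a mean of 2.26 in controls and 3.54 with Ota, and H4C9 followed at 3.05 and 3.71. In the fit without a filter 5 of the 27 rose at 24 h and 2 at 72 h, no more often than the 19.3% and 12.2% of all unfiltered probe sets. Of the 3 that exceeded 4 on 1 or 2 arrays, H2AC15 (239041_at), H2AC4 and H2BC17, 0 were called at either time in that fit. Near the floor these probe sets measure change poorly, and they do not bound the level of their genes. For example, 210387_at, which has several symbols with H2BC11 among them, had 24 h means of 3.37 in controls and 9.47 with Ota.

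The divergent pairs give a local view of these differences. H2BC4 and H2AC6, whose start sites are 245 bases apart, were both over the filter and both rose at both times. For H2AC14 with H2BC14 (244 bases) and H2AC17 with H2BC17 (239 bases), only the H2A member passed the filter, and H2BC14 and H2BC17 had unfiltered log2 fold changes of 0.18 and 0.06 at 24 h and 0.06 and 0.79 at 72 h. The last value rests on 1 array: H2BC17 read 2.44, 4.67 and 2.43 with Ota at 72 h against controls of 2.39, 2.39 and 2.40. Neither H2AC15 nor H2BC15, which start 193 bases apart, passed.

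The Ota effect changed with time in 13 of the 22 members: it was higher at 72 h in 9 and lower in 4 (limma, interaction), where 28.3% and 17.6% of all tested probe sets were so called. Among the 10 members over 4 on at least 3 control arrays, 6 were higher and 1 lower, against 28.5% and 17.5% of all probe sets with such control levels. H2BC21 passed the filter through its 3 Ota arrays of 72 h alone, so its difference is given as a description. All 7 H2B probe sets called here were higher at 72 h, among them H2BC21 (a difference of 3.88 ± 0.20), H2BC9 (2.41 ± 0.29), H2BC6 (1.47) and H2BC4 (1.18). H1-2 (3.66 ± 0.26) and 1 probe set of H4C8 (1.36) were also higher. The 3 H2A probe sets called were lower at 72 h (H2AC6 by -1.35, H2AC16 by -0.87 and H2AC14 by -0.67), as was H3C3 (-1.92 ± 0.60). With spike-in scaling 14 were higher and 0 lower (53.9% and 3.81% of all), and H2AC14 and H2AC16 turned direction (0.30 and 0.09). H3C3 and H2AC6 lost their calls under it (-0.96 and -0.39, limma adjusted p = 0.106 and 0.574). In the fit without a filter the calls of H2AC6, H2AC14, H3C3 and H2BC4 ended (limma adjusted p between 0.0762 and 0.0997), and that of H2AC16 held (0.0384). With quantile normalization the split was 8 and 6, and with centring on the array median 7 and 6. Leaving out 1 array at a time gave 8 to 12 higher and 1 to 5 lower; the call of H2AC14 held only without replicate 2 of either Ota group and ended with the replicate number as a block (adjusted p = 0.066), and that of H2AC6 only without Ota 24 h replicate 2, Ota 72 h replicate 3 or control 24 h replicate 2 or 3. That of H2AC16 ended without control 72 h replicate 1. That of H2BC4 ended without replicate 1 of Ota at 24 h, replicate 1 or 2 of Ota at 72 h or replicate 2 or 3 of the 24 h controls (1.12 to 1.15).

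**Figure D3:**
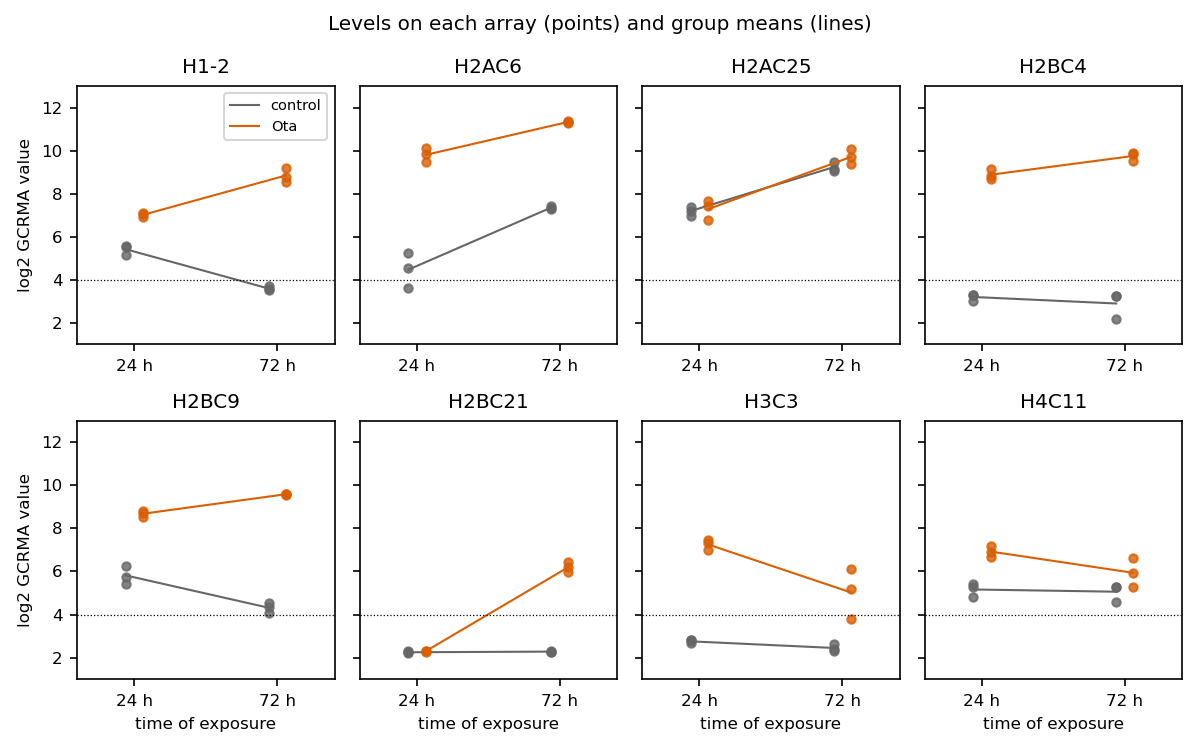
Log2 GCRMA values of 8 members on each array (points) with group means joined from 24 h to 72 h (lines), control in grey and Ota in orange; the dotted line is the filter value of 4. H2BC21 is high only with Ota at 72 h, H3C3 is lower with Ota at 72 h than at 24 h, and H2AC25 rises with time in both.

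Within control cells, 3 members rose and 2 fell from 24 h to 72 h, where 11.9% and 11.7% of all tested probe sets did so. H2AC6 rose by 2.89 ± 0.32, H2AC25 by 2.04 ± 0.25 and H2BC12 by 0.60 ± 0.18, while H1-2 fell by 1.83 ± 0.18 and H2BC9 fell by 1.50 ± 0.20 on the log2 scale (limma adjusted p between 4.23e-05 and 0.029). The call of H2BC12 ended without control 24 h replicate 1 (0.46, adjusted p = 0.123) or without any 1 of the 72 h controls. With spike-in scaling 2 rose and 2 fell (5.1% and 5.59% of all), H2BC12 losing its call (0.57, adjusted p = 0.267). Within Ota-treated cells 14 members rose and 5 fell, where 36.5% and 21.1% of all did so. The risers held 8 of 9 H2B probe sets, and the fallers were H2AC8, H2AC14, H2AC16, H3C3 and H4C11. With spike-in scaling 16 rose and 1 fell (69.4% and 5.45% of all), and H2AC14, H2AC16 and H2AC17 turned direction (0.22, 0.07 and 0.68). The calls of H2AC8 and H4C11 each ended without Ota 24 h replicate 3 or without Ota 72 h replicate 1 or 3, and that of H2BC4 (0.87) without Ota 24 h replicate 2 or Ota 72 h replicate 1. These comparisons share arrays with the Ota comparisons at each time.

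A further 20 probe sets carry several symbols, at least 1 of them a clustered histone gene, and cannot be assigned to a gene. In a fit of probe sets with any number of symbols, added after the data were seen, 14 of them passed the filter. At 24 h 13 rose and 0 fell (24.2% and 36.1% of all 22565), and at 72 h 13 rose and 1 fell (27.5% and 30.7%). The highest fold at 24 h was that of 210387_at, for a pair of H2B genes, at means of 3.37 and 9.47 at 24 h (6.09 ± 0.20) and 3.11 and 8.66 at 72 h. The 1 that fell was 205967_at, annotated to 14 H4 genes. It had means of 12.03 ± 0.24 (SD, n = 3) in 24 h controls, 11.87 ± 0.13 with Ota at 24 h, 11.68 ± 0.17 in 72 h controls and 9.88 ± 0.27 with Ota at 72 h (-1.80 ± 0.18, SE, limma adjusted p = 6.11e-06). This H4 signal, near 12 in the other groups, did not rise at either time, unlike the 3 H4 probe sets above. The other probe set annotated to 14 H4 genes that passed the filter, 208580_x_at, rose at both times (1.43 ± 0.19 and 0.54 ± 0.19).

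Genes that act with the clustered histones were described from lists of related genes, each gene by its probe set with the highest mean. With 1 probe set per gene, 20.8% of all 10729 genes rose and 40.5% fell at 24 h, and 24.8% rose and 35.2% fell at 72 h (limma), the shares beside which the counts stand. Of 27 measured factors of histone mRNA transcription and 3′ processing, 3 rose and 15 fell at 24 h, and 12 rose and 4 fell at 72 h. NPAT, the coactivator of histone gene transcription at S phase entry, fell by 3.99 ± 0.25 at 24 h (means 8.12 and 4.13), when most members were higher, and had a value of -0.52 at 72 h (limma adjusted p = 0.0901). The cap-binding protein NCBP1 fell by 3.16 and the cleavage factor CPSF4 fell by 3.02 at 24 h, while TUT7, a uridylyl transferase, rose by 1.92 with another of its probe sets falling. At 72 h MIF4GD, which binds SLBP, fell by 3.06, NCBP2 fell by 2.20 and CSTF3 rose by 1.84. SLBP, named after its values were seen, had 0.18 ± 0.23 at 24 h and rose by 1.53 ± 0.23 at 72 h. With spike-in scaling 0 of the 27 rose and 26 fell at 24 h, where 91.1% of all tested probe sets fell, and 1 rose and 11 fell at 72 h, where 59% fell.

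Of 39 measured DNA replication genes, 1 rose and 21 fell at 24 h, and 18 rose and 6 fell at 72 h, beside the shares of all genes given above (40.5% fallen at 24 h, 24.8% risen at 72 h). The clamp loader subunits RFC4 fell by 4.02 and RFC3 fell by 3.70, and the single-strand binding subunit RPA2 fell by 3.59 at 24 h, while RFC5 rose by 0.67 with its other probe sets falling. At 72 h RFC4 fell by 4.57, the primase subunit PRIM1 fell by 2.86 and MCM10 rose by 3.73. Of 16 genes of S phase entry, 4 rose and 8 fell at 24 h and 9 rose and 1 fell at 72 h. E2F7 fell by 3.34, CDK2 fell by 3.24 and CCNE1 fell by 2.03 at 24 h and CKS1B rose by 0.75, and at 72 h CDC25A rose by 3.44, E2F8 and CCNE2 each by 2.51, and the inhibitor CDKN1B fell by 0.97. With spike-in scaling 39 of 39 and 16 of 16 fell at 24 h, near the 91.1% of all tested probe sets that did, and at 72 h 5 rose and 13 fell in the first list and 6 rose and 2 fell in the second, where 59% of all fell.

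Of 22 measured histone chaperones, which carry histones to DNA, 2 rose and 8 fell at 24 h and 8 rose and 5 fell at 72 h, the 24 h falls being no more frequent than the 40.5% of all genes. DNAJC9 fell by 2.90, CHAF1A fell by 2.34 and NASP fell by 1.82 at 24 h, and DAXX rose by 1.22. At 72 h ASF1B rose by 2.49, RBBP4 fell by 2.48 on its brightest probe set with other probe sets rising, and the importin IPO4 fell by 2.27. Of 9 replacement variants, most of which can be made outside S phase from tailed transcripts, 3 rose and 4 fell at 24 h and 5 rose and 3 fell at 72 h. H1-10 fell by 3.26 and H2AX fell by 2.06 at 24 h while H3-3A rose by 1.33, and at 72 h H1-10 fell by 1.74, H2AJ fell by 1.46 with another of its probe sets rising, and MACROH2A1 rose by 1.58. With spike-in scaling 0 rose and 22 fell among the chaperones and 0 rose and 8 fell among the variants at 24 h, and at 72 h these counts were 3 and 11, and 1 and 4; of all tested probe sets 91.1% and 59% fell.

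**Figure D4:**
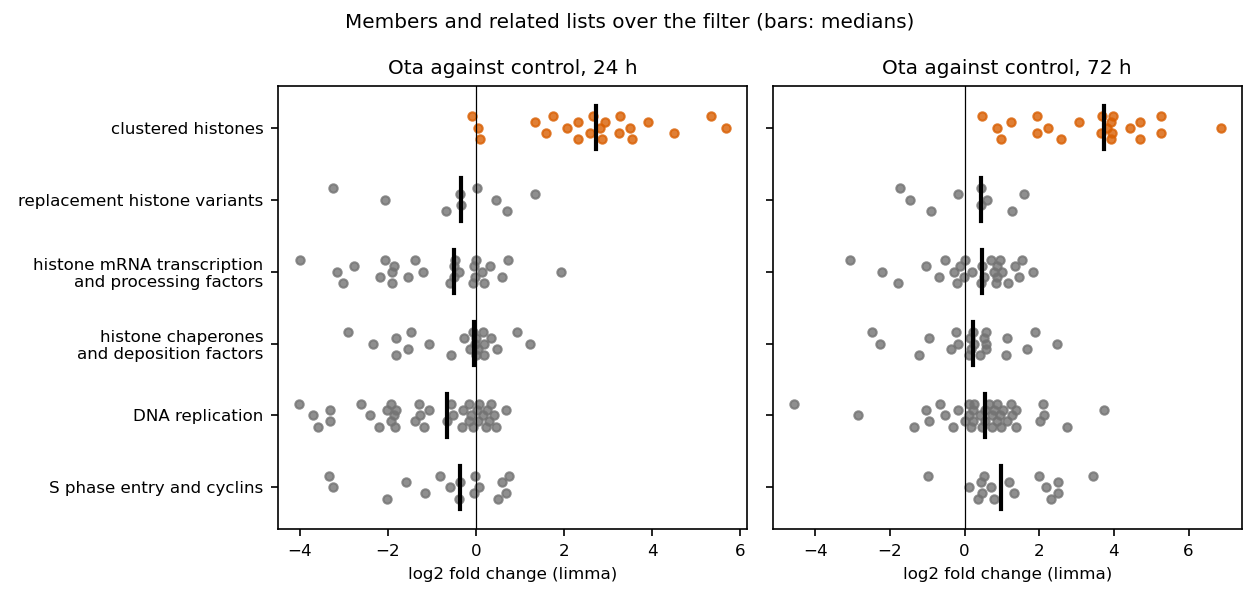
Log2 fold change of Ota against control at 24 h and at 72 h (limma) for the 22 members (orange) and for the measured genes of 5 related lists (grey, 1 probe set per gene), with black bars at the medians. The members' medians are 2.74 and 3.74, and those of the lists lie between -0.66 and -0.05 at 24 h and between 0.23 and 0.98 at 72 h. Of the 22 members, 11 passed the filter through Ota arrays alone and so had to differ. Over all 49 members without a filter the medians are 0.18 and 0.47.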

How the data were processed

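Total RNA of HK-2 cells was measured on 12 Affymetrix arrays. The authors deposited 1 log2 signal per probe set and array, made with GCRMA per the submitters' processing notes; its version and the arrays normalized together are not given in the sources used here. Of 54675 probe sets 62 were controls, 41091 others had 1 symbol, 1801 several and 11721 none. GCRMA sets a floor for dim probe sets and evens the arrays' distributions, so small folds near the floor and shifts of all RNA are poorly measured.

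Group means were fitted with limma 3.58.1 in R 4.3.3 (residual degrees of freedom 8, prior 3.71), two-sided, with Benjamini-Hochberg adjustment. Array-wide values were compared by exact permutation. Replicate numbers were checked as pairs: same-numbered Ota and control arrays correlated in their deviations by 0.113 to 0.253 at 24 h (-0.224 to 0.012 for different numbers) and by -0.098 to 0.171 at 72 h (-0.23 to 0.124). As 1 pair at 72 h lay under 0.1, the arrays were not treated as paired in the fit over all 4 groups; calls that the replicate block changes are named beside the results.

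The members and lists were chosen with earlier results of these data known. Values on every array are given for up to 4 called probe sets per histone family with the largest change in each Ota comparison and for genes whose probe sets differ in call; other lists give the 3 largest changes and the largest in the other direction. Alternatives were other scalings, filters, thresholds, probe set classes, the replicate block, each array left out, and 2 fits with any number of symbols that were added after seeing the data. The number of arrays limits the precision.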

Additional observations from a re-analysis of the deposited data

Results flagged for a closer look

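The Ota effect at 72 h differed from that at 24 h, by the interaction term of limma at an adjusted p under 0.05, in 13 member probe sets. The difference (72 h minus 24 h, log2) was 3.88 for H2BC21, 3.66 for H1-2, 2.41 for H2BC9, 1.47 for H2BC6, 1.18 for H2BC4 and 1.16 for H2BC12L. For the 2 probe sets of H2BC5 it was 1.78 and 0.98, and for H4C8 (232035_at) it was 1.36. It was -1.92 for H3C3, -1.35 for H2AC6, -0.87 for H2AC16 and -0.67 for H2AC14. Without the filter the calls of H2BC4, H3C3, H2AC6 and H2AC14 ended.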

How the results depend on the processing

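Of 1831 values of single members under alternatives, 1678 kept their direction and their side of the threshold, 79 lost the call, 29 gained it, 34 with no call under either setting changed sign, and 11 with a call under at least 1 of them reversed, all 11 with spike-in scaling. These were H1-2 (-0.25), H2AC25 (-1.77), H2BC21 (-1.81), H2BC3 (-0.52) and H4C11 (-0.09) at 24 h, H4C11 (-0.01) at 72 h, the differences between times of H2AC14 (0.30) and H2AC16 (0.09), and the change with time in treated cells of H2AC14 (0.22), H2AC16 (0.07) and H2AC17 (0.68). That scaling also gave 3 fallen members at 24 h, 14 higher and 0 lower differences, and 1 faller with time in treated cells. For H2BC21, at the floor in both 24 h groups, the reversal is the shift of the scaling and not a measured fall.

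Without _x_at and _s_at probe sets, which leaves 11 members, 9 rose at 24 h and 9 at 72 h, the differences were 3 higher and 2 lower, 1 fell with time in controls, and 6 rose and 3 fell with time in treated cells. With a value over 6 on 3 arrays, which leaves 14, 13 rose at 72 h, and 2 differences were lower and 2 fell with time in treated cells. At an adjusted p under 0.01 the lower differences were 0 and the fallers in treated cells 3, and with a log2 change of at least 1 both were 2. Leaving out 1 array gave 18 to 19 risers at 24 h and 18 to 21 at 72 h, 8 to 12 higher and 1 to 5 lower differences, 2 to 3 risers and 2 fallers in controls, and 13 to 15 risers and 3 to 6 fallers in treated cells. With the replicate block H4C11 at 72 h (0.87, adjusted p = 0.0508) and the difference of H2AC14 (adjusted p = 0.066) lost their calls and H2BC3 at 72 h gained it (adjusted p = 0.0379); no other call of a member changed. Signals near the floor limit what can be said of the 27 members below the filter.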
